A study of Mus musculus with 8 samples.

Results

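The glucocorticoid receptor gene Nr3c1 and 6 genes that it is known to induce in liver (Fkbp5, Tsc22d3, Sgk1, Zbtb16, Lpin1 and Ddit4) were followed in livers of hypophysectomized male mice after a single pulse of growth hormone (GH). The 7 genes were taken by symbol from a table of 24197 genes, and 6 of them averaged at least 1 FPKM (reads scaled to exon length and library size) over the groups, as did 10736 genes in all. The 4 groups were untreated mice and mice killed 30, 90 or 240 min after an injection of 125 ng GH per g body weight. All were CD-1 males aged 11 weeks whose pituitary had been removed at 7 weeks, so the untreated group lacks pituitary hormones too. Each group had 2 pools of 4 livers, so the spread shown is between pools and not between mice. The design text calls the controls untreated while the treatment protocol speaks of a vehicle injection. If no vehicle was given, the injection and the hormone are confounded and their effects cannot be told apart.

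The glucocorticoid receptor is a nuclear receptor that waits in the cytoplasm bound to HSP90 and its cochaperones. When it binds corticosterone in mice or cortisol in humans, it moves to the nucleus and binds DNA as a dimer at an inverted repeat, from which it raises or lowers transcription. In hepatocytes it drives enzymes of glucose and amino acid metabolism, and GH-activated STAT5 is known to work together with it at many liver genes. Corticosterone release depends on pituitary ACTH, a hormone that hypophysectomy removes.

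The authors deposited a mean over both pools of each group, and the reads of each pool were recovered from these means for 13091 genes (98.7% of 13263 tried). The pools held 5937824 to 17124712 reads. They are called the shallower and the deeper pool of a group, because their pool numbers are not known. The 30 min pools stood apart from each other: over 10561 genes, the SD of the log2 difference between the pools was 0.704 at 30 min, against 0.389 at 90 min, 0.502 at 240 min and 0.423 in untreated livers. The shallower 30 min pool was most like an untreated pool (r = 0.958 across genes) and the deeper one most like a 90 min pool (r = 0.959), while the 30 min pools correlated at 0.934 with each other. The liver label held, as 9 hepatocyte markers summed to 50462, 46382 and 40404 FPKM after 30, 90 and 240 min of GH and to 56286 FPKM in untreated livers. Kupffer cell markers (10 genes) summed to 202, 170 and 163 FPKM after GH and 225 FPKM in untreated livers, and neutrophil markers (7 genes, Camp at 0 in all groups) to 13.8, 50.8 and 21.2 FPKM after GH and 34.5 FPKM in untreated livers. T, NK and innate lymphocyte markers (10 genes) stayed between 4.46 and 6.37 FPKM and B cell markers (5 genes) between 4.18 and 7.17 FPKM in sum. Cholangiocyte markers (5 genes) summed to 39.4 FPKM at 240 min and 17.3 FPKM in untreated livers. Endothelial markers (6 genes) summed to 85.5 to 94.8 FPKM over the groups and erythroid markers (5 genes) to 185 to 261 FPKM. The members are expressed in several of these cell types, and the part of cell composition in their changes was not tested. In bulk liver, fewer cells of a type and less RNA per cell cannot be told apart.

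A call here means an adjusted p under 0.05 by the authors, and the comparisons of all 3 times share the untreated pools. At 30 min the authors' deposited table called none of the 7 members in the gene body and 0.512% of the 10736 measured genes. At 90 min 3 members were called, against 28.4% of measured genes: Nr3c1 and Fkbp5 higher (15.9% of measured genes) and Tsc22d3 lower (12.5%). At 240 min Fkbp5 alone was called in the authors' deposited table, against 23% of measured genes, of which 14.4% were higher and 8.58% lower. Sgk1, Zbtb16, Lpin1 and Ddit4 were called at no time. A limma voom fit on the recovered reads made the same 3 calls at 90 min, called Tsc22d3 beside Fkbp5 at 240 min, and called none of the 7 at 30 min either, where 0 of 7 had an unadjusted p under 0.05. The shares at 90 and 240 min are broad, so counts of members alone say little, and the members differed in direction and timing as described gene by gene.

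**Figure D1:**
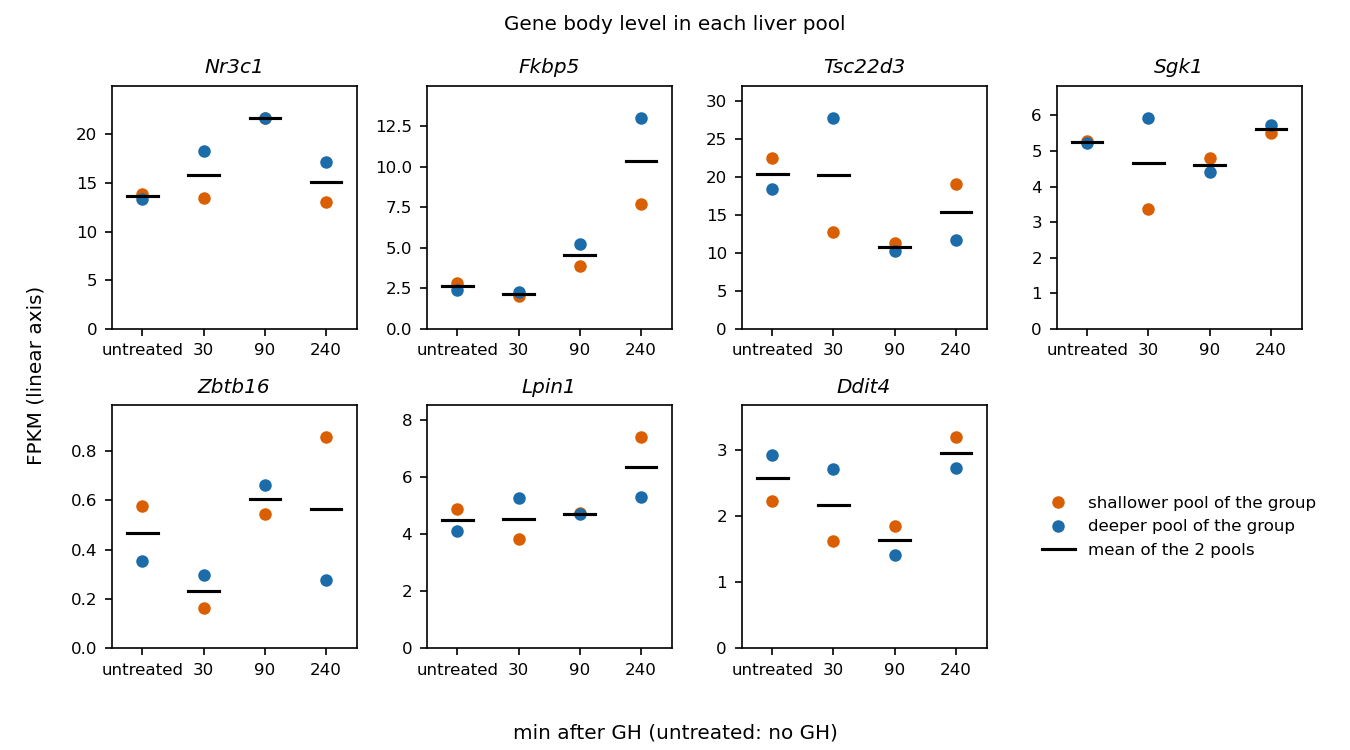
Gene body level in FPKM (linear axes from 0) of the 7 members in untreated livers and 30, 90 and 240 min after GH. Each dot is a pool of 4 livers and each bar the mean of both pools; Nr3c1 is highest at 90 min, Fkbp5 at 240 min, and Tsc22d3 lowest at 90 min.

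Nr3c1 encodes the receptor itself (mm9 chr18:39570199-39646899, with 6329 bases of exons and 70372 bases of introns). Its gene body level was 13.9 and 13.4 FPKM in the untreated pools, 13.4 and 18.2 FPKM at 30 min, 21.7 and 21.7 FPKM at 90 min, and 13.1 and 17.2 FPKM at 240 min (shallower pool first). Both 90 min pools were above every other pool, and the pools of the other groups overlapped. The 90 min level rested on 2114 and 2350 reads, against 655 and 892 reads in the untreated pools. At 90 min Nr3c1 rose 1.59-fold in the authors' deposited table (adjusted p = 2.4e-07), while the ratio was 1.19 at 30 min and 1.08 at 240 min (adjusted p = 1.0 for each). A trend over transcript length and GC content, fitted across 10314 measured genes, gave a value of 0.47 (log2) at the length and GC content of Nr3c1. Less that trend, its log2 ratio at 90 min was 0.19 in place of 0.67, and at 240 min it was -0.19 in place of 0.11. The part of transcript length in the Nr3c1 change was not tested beyond this value. From 90 to 240 min its level dropped by 0.62 (log2; SE 0.15, voom adjusted p = 0.029), a call that was lost in 6 of 9 alternative fits (adjusted p 0.0029 to 0.11). Intronic reads of Nr3c1, which come from RNA not yet spliced, numbered 41 and 49 at 90 min, against 10 and 14 in the untreated pools. Its intronic level was 0.0379 and 0.0407 FPKM at 90 min and 0.0191 and 0.0189 FPKM in untreated livers, without overlap, but intronic reads of all genes were more frequent at 90 min as well. After the authors' normalization the intronic ratio was 1.39 at 90 min (adjusted p = 0.96) in their deposited table, and the introns of Nr3c1 were called at no time.

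Fkbp5 encodes FKBP51, an HSP90 cochaperone that lowers the receptor's affinity for hormone and is among its most widely used target genes (mm9 chr17:28535698-28623094, 3884 bases of exons and 83513 bases of introns). Its gene body level was 2.84 and 2.42 FPKM in the untreated pools, 2.06 and 2.30 FPKM at 30 min, 3.90 and 5.23 FPKM at 90 min, and 7.72 and 13.02 FPKM at 240 min. Each later group was above all earlier pools from 90 min on, and the pools at 240 min differed from each other by 1.69-fold. By the authors' deposited table Fkbp5 rose 1.75-fold at 90 min (adjusted p = 0.00064) and 3.87-fold at 240 min (adjusted p = 6.9e-12), with a ratio of 0.86 at 30 min (adjusted p = 1.0). Removing the length and GC trend left log2 ratios of 0.80 at 90 min and 2.00 at 240 min, against 0.80 and 1.95 before. The level at 240 min was above that at 90 min by 1.10 (log2; SE 0.24, voom adjusted p = 0.020). That call was lost in 3 of 9 alternative fits (adjusted p 4.2e-05 to 0.14). Without the deeper 240 min pool the difference was 0.66, with an adjusted p of 0.073. In the voom fits the 90 min call over untreated was lost in 4 of 9 alternatives (adjusted p 3.5e-08 to 0.16), among them the fit without the deeper untreated pool (adjusted p = 0.14), while the 240 min call was kept in all 9 (highest adjusted p = 0.032).

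The introns of Fkbp5 followed another time course than its gene body. They held 6 and 7 reads in the untreated pools, 12 and 15 at 30 min, 83 and 96 at 90 min, and 7 and 24 at 240 min. The intronic level was thus 0.00966 and 0.00797 FPKM in untreated livers, 0.0151 and 0.0182 FPKM at 30 min, 0.0646 and 0.0671 FPKM at 90 min, and 0.0141 and 0.0203 FPKM at 240 min. The 90 min pools lay above all others and the untreated pools below all others, while the 30 and 240 min pools overlapped. Fkbp5 introns rose 5.06-fold at 90 min (adjusted p = 4.4e-08) in the authors' deposited table and had ratios of 1.75 at 30 min and 1.65 at 240 min (adjusted p = 1.0 for each). Fkbp5 was the 1 of 7 members called in introns at 90 min, where 14% of 10283 genes were called and 7.61% were called higher. None of the 7 was called in introns at 30 min or 240 min in the authors' deposited table, against 1.28% and 11.0% of genes. Of the 6 members with enough intronic reads for voom, 0 were called at 30 min (0 at an unadjusted p under 0.05), and 0 at 240 min (1 at an unadjusted p under 0.05). From 90 to 240 min the intronic level of Fkbp5 dropped by 1.57 (log2; SE 0.33, voom adjusted p = 0.0057), while its gene body level went up. The intronic call was lost in 2 of 6 alternative fits (adjusted p 0.0017 to 0.093), namely those without either 240 min pool: the log2 difference was -1.32 without the shallower and -2.03 without the deeper one. Without the deeper untreated pool the voom log2 difference at 90 min over untreated was 2.07 (adjusted p = 0.094), against 2.18 (adjusted p = 0.0011) with all pools.

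**Figure D2:**
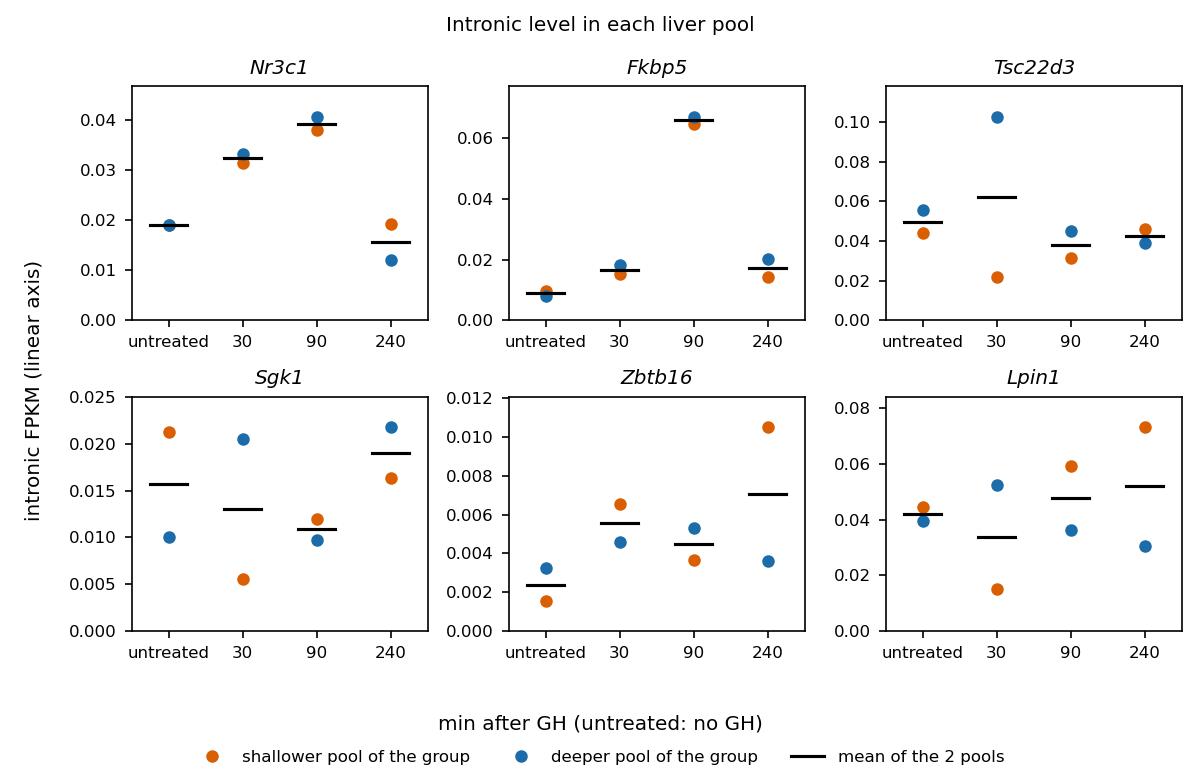
Intronic level in FPKM (linear axes from 0) of 6 members by pool and time; Ddit4, with 1 intronic read in all, is left out. Each dot is a pool of 4 livers and each bar the mean of both pools; the 90 min pools of Fkbp5, at 0.0646 and 0.0671 FPKM, stand above all its other pools.

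Intronic reads set against gene body reads of the same gene and pool do not depend on how pools are scaled. Per 100 gene body reads, Fkbp5 had 7.32 and 7.07 intronic reads in the untreated pools, 15.8 and 17.1 at 30 min, 35.6 and 27.6 at 90 min, and 3.93 and 3.35 at 240 min. No group overlapped another in this measure, and the 240 min pools lay below the untreated ones. Over 13060 genes together the same measure was 9.67 and 9.17 in the untreated pools, 7.98 and 13.4 at 30 min, 14.3 and 14.2 at 90 min, and 11.9 and 10.02 at 240 min. The 90 min pools were thus richer in intronic reads throughout, and the gap between the 30 min pools was the widest within a group. Nr3c1 had 1.53 and 1.57 intronic reads per 100 gene body reads in the untreated pools, 2.61 and 2.02 at 30 min, 1.94 and 2.09 at 90 min, and 1.63 and 0.78 at 240 min. Its untreated pools lay below its 30 and 90 min pools.

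**Figure D3:**
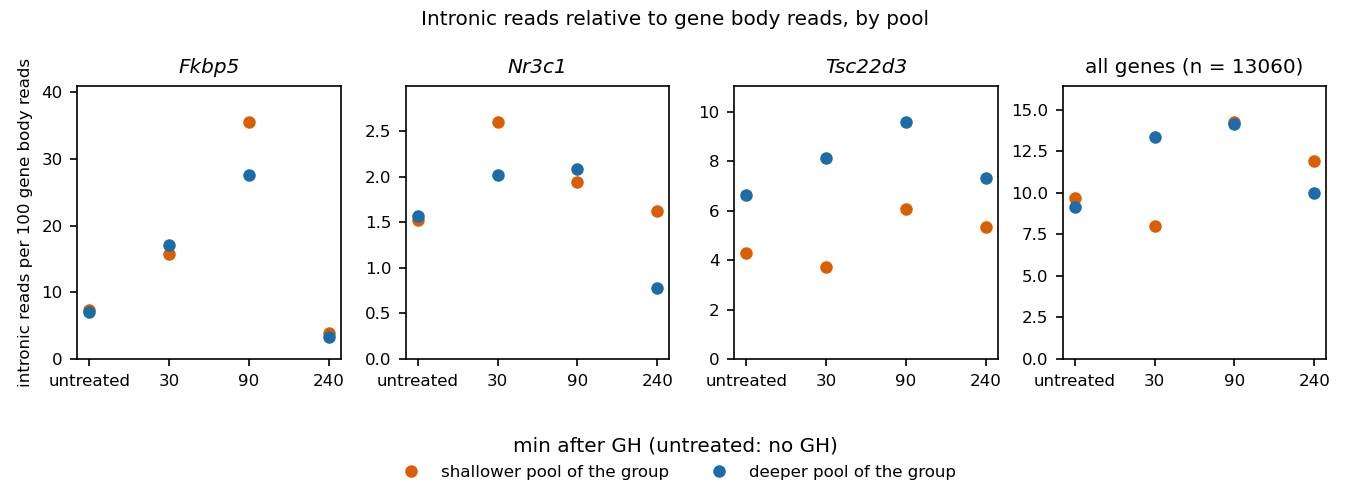
Intronic reads per 100 gene body reads (linear axes from 0) of Fkbp5, Nr3c1, Tsc22d3 and 13060 genes together, by time. Each dot is a pool of 4 livers; Fkbp5 reaches 35.6 and 27.6 at 90 min and is at 3.93 and 3.35 at 240 min.

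Tsc22d3 encodes GILZ, a leucine zipper protein through which glucocorticoids restrain inflammatory signalling (mm9 chrX:137074068-137135061, 3 locations listed, 2648 bases of exons). Its gene body level was 22.4 and 18.4 FPKM in the untreated pools, 12.8 and 27.8 FPKM at 30 min, 11.3 and 10.3 FPKM at 90 min, and 19.02 and 11.7 FPKM at 240 min. The 90 min pools were the lowest of all, and the 30 min pools fell on either side of the untreated ones. Tsc22d3 fell in the authors' deposited table to 0.53 of the untreated level at 90 min (adjusted p = 7.2e-09), with ratios of 1.02 at 30 min (adjusted p = 1.0) and 0.71 at 240 min (adjusted p = 0.15). The trend over length and GC content left its log2 ratio at 90 min at -0.91. The voom fit called it lower at 240 min (log2 -0.58, SE 0.19, adjusted p = 0.036), a call that was lost in 7 of 9 alternatives (adjusted p 1.6e-10 to 0.32). Without the deeper 240 min pool the value there was -0.19. At 30 min the log2 difference to untreated livers was 0.48 without the shallower pool and -0.57 without the deeper pool, so its direction at that time rested on the choice of pool. The intronic level of Tsc22d3 was 0.0312 and 0.0450 FPKM at 90 min and 0.0438 and 0.0554 FPKM in the untreated pools. These pools overlapped, and the quotient of the means was 0.77 before the authors' normalization. Introns of Tsc22d3 held 28 and 45 reads at 90 min and 19 and 34 in the untreated pools. Their ratio in the authors' deposited table at 90 min was 0.51 (adjusted p = 0.062), and voom gave a log2 difference of -1.06 (SE 0.30, adjusted p = 0.022; adjusted p 0.0014 to 0.35 over 6 alternatives, 4 of which lost the call). The marker sums of all listed cell types except neutrophils were also lower at 90 min than in untreated livers. Those of Kupffer cells, B cells and hepatocytes were 170 against 225, 4.18 against 7.17 and 46382 against 56286 FPKM. Most of the hepatocyte sum was Alb (33875 against 40641 FPKM), which the authors did not call at 90 min. Of 9 hepatocyte markers, they called 5 lower and 2 higher at that time. The neutrophil sum was higher (50.8 against 34.5 FPKM). The part of any cell type in the fall of Tsc22d3 was not tested.

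Sgk1 encodes a kinase that promotes sodium transport and cell survival and is induced by both glucocorticoids and mineralocorticoids (mm9 chr10:21601990-21719708, 6 locations listed, 4157 bases of exons). Its level was 5.27 and 5.24 FPKM in the untreated pools, 3.37 and 5.94 FPKM at 30 min, 4.80 and 4.40 FPKM at 90 min, and 5.51 and 5.74 FPKM at 240 min. The authors' deposited table gave it ratios of 0.91, 0.87 and 1.04 at 30, 90 and 240 min (adjusted p = 1.0, 0.60 and 1.0). The 30 min pools spanned the whole range of the gene. Without the deeper 30 min pool voom gave a log2 difference of -0.55 at 30 min (adjusted p = 0.014), against -0.18 (adjusted p = 0.91) with both pools. The introns of Sgk1 held 6 to 35 reads per pool and overlapped between all groups except that the 240 min pools (0.0163 and 0.0218 FPKM) were above the 90 min pools (0.0120 and 0.00977 FPKM), a difference of 1.13 (log2, SE 0.36) that missed the threshold in voom (adjusted p = 0.057).

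Lpin1 encodes lipin 1, a phosphatidate phosphatase of triglyceride synthesis that also acts as a transcriptional coactivator in liver (mm9 chr12:16542475-16596576, 5725 bases of exons). Its level was 4.88 and 4.14 FPKM in the untreated pools, 3.84 and 5.27 FPKM at 30 min, 4.75 and 4.72 FPKM at 90 min, and 7.41 and 5.32 FPKM at 240 min. Both 240 min pools were above all earlier pools, the deeper one narrowly (5.32 against 5.27 FPKM in the deeper 30 min pool). Pools at 240 min that did not overlap the untreated ones were found for 65.4% of 10561 genes. In the authors' deposited table the ratio of 1.34 at 240 min was not called (adjusted p = 0.16). Voom gave a log2 difference of 0.36 at 240 min (SE 0.17, adjusted p = 0.15), and 0.63 without the deeper 240 min pool (adjusted p = 0.00027). Ddit4 encodes REDD1, a stress-induced inhibitor of mTORC1 (mm9 chr10:59412423-59414518, 1685 bases of exons). Its level was 2.23 and 2.93 FPKM in the untreated pools, 1.63 and 2.71 FPKM at 30 min, 1.85 and 1.42 FPKM at 90 min, and 3.20 and 2.73 FPKM at 240 min. Its 90 min pools were below those of the untreated and 240 min groups, on 48 and 41 reads. The 90 min ratio of 0.62 in the authors' deposited table was not called (adjusted p = 0.096), nor was it by voom (log2 -0.70, SE 0.26, adjusted p = 0.066). Once the length and GC trend was subtracted, the log2 ratio of Ddit4 was -0.31 in place of -0.69. Zbtb16 encodes PLZF, a zinc finger repressor, and was the member below 1 FPKM (mm9 chr9:48462402-48644050, 5114 bases of exons). It had 0.578 and 0.353 FPKM in the untreated pools, 0.165 and 0.298 FPKM at 30 min, 0.547 and 0.662 FPKM at 90 min, and 0.856 and 0.276 FPKM at 240 min. These values rested on 8 to 58 reads per pool, and the pools at 240 min differed by 3.10-fold. No change of Zbtb16 over untreated livers was detectable at this depth.

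The receptor dimer binds an inverted repeat of a 6-base motif, AGAACA followed after 3 bases by TGTTCT, each the reverse complement of the other. RefSeq promoter windows of 300 bases (250 before to 50 after a start, GRCm38.p6) were at hand for 5 members, in 12 windows. Either motif was found in 5 of the 12 windows, and in 18.97% of 32851 windows of all genes (16.1% when the search was kept to the 250 bases before the start). Windows of the same gene are not independent, and Sgk1 and Tsc22d3 had several each. By gene, 3 of the 5 members held a motif in at least 1 window, and no share by gene over all genes is given here. The full inverted repeat was found in 1 member window, of Sgk1, at positions -189 to -175 from the start, and in 3 of the 32851 windows in all (0.00913%). A match describes the letters only, and no binding was measured. Windows for Nr3c1 and Zbtb16 are not shown. Only 1 of several windows is printed for Sgk1 and for Tsc22d3. Some of the other Sgk1 windows and all other Tsc22d3 windows hold no motif. The Sgk1 window (chr10:21993640-21993939, plus strand) is printed because it holds the full repeat, the Tsc22d3 window (chrX:140600473-140600772, minus strand) because it holds 1 motif in the member that fell, and the Fkbp5 window (chr17:28486100-28486399, minus strand) because the member with the highest ratio has no match there. Motifs are in capitals, 5′ to 3′.
Sgk1: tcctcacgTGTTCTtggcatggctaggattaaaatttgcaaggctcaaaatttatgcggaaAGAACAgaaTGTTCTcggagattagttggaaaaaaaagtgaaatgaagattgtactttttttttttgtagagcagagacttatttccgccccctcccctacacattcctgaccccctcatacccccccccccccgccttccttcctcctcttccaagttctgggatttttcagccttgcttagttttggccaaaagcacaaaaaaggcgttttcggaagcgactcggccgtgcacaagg
Tsc22d3: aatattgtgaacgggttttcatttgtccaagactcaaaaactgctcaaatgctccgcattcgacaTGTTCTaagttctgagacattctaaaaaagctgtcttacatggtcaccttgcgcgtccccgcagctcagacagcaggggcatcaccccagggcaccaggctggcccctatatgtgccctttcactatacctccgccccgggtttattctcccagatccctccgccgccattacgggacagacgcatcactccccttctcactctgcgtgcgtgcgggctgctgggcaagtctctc
Fkbp5: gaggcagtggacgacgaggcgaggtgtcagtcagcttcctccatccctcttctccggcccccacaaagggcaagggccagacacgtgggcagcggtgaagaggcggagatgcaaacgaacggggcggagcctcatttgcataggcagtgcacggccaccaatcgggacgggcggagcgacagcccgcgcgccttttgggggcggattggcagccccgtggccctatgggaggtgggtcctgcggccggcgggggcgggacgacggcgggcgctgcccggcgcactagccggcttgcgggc
Sgk1, the gene with the full repeat in 1 of its windows, was called at no time, and Fkbp5 was called at 90 and 240 min. The windows cover only 300 bases at each RefSeq start, and no relation between motifs and calls was tested.

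In the direct comparison of 90 with 30 min, voom called 0 of 7 members in the gene body, although 3 had an unadjusted p under 0.05, and it called 0.0% of 13091 genes (1144 at an unadjusted p under 0.05). In introns it called 0 of 6 members (2 at an unadjusted p under 0.05) and 0.0% of 10929 genes (1234 at an unadjusted p under 0.05). Without the deeper 30 min pool 3 members were called in the gene body, Nr3c1, Fkbp5 and Zbtb16, against 3181 of 13091 genes, and without the shallower one Tsc22d3 alone, against 388 genes. Between 240 and 90 min, voom called 2 of 7 members in the gene body (Fkbp5 higher and Nr3c1 lower), against 10.7% of genes, and 1 of 6 in introns (Fkbp5 lower), against 9.84%. Pools that do not overlap were common: at 90 min the gene body pools of 5 of 7 members lay wholly above or below the untreated pools, as did those of 69.7% of 10561 genes, and at 240 min 3 of 7 did, against 65.4% of genes.

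The genes whose pattern over the 3 times was nearest to that of a called member were sought among 4323 called genes with at least 1 FPKM, by the Euclidean distance between log2 ratios. The nearest to Fkbp5 in the authors' deposited table were Rrp12, a ribosome assembly factor (distance 0.22), Camkk2, a calcium-dependent kinase kinase (0.29), and Gfpt1, the first enzyme of the hexosamine pathway (0.40). Rrp12 had log2 ratios of 0.77 and 1.93 at 90 and 240 min, by the authors' deposited table. The nearest to Nr3c1 in the authors' deposited table were Dock5 (distance 0.05), Supt20 (0.05) and Dennd4a (0.06), each called higher at 90 min and at no other time. The nearest to Tsc22d3 in the authors' deposited table were the apolipoprotein gene Apoa4 (distance 0.12), Gm3776 (0.15) and the linker histone gene Hist1h1c (0.20). In the authors' deposited table Apoa4 fell at both later times (log2 -0.81, adjusted p = 8.9e-09, and log2 -0.45, adjusted p = 0.048).

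Of 12 listed chaperones and cochaperones of the receptor, more were called higher than lower at both later times. At 90 min 5 of 12 rose and 2 fell in the authors' deposited table, and at 240 min 7 of 12 rose, where the median log2 ratio was 0.59, against 0.03 over all measured genes. The 2 that fell at 90 min were Stub1 (ratio 0.75, adjusted p = 0.0094) and Bag1 (ratio 0.79, adjusted p = 0.046), named here for that reason. Hsp90aa1, a cytosolic HSP90 gene, had 73.7 and 90.3 FPKM at 90 and 240 min, against 36.1 FPKM in untreated livers, a rise of 2.04-fold and 2.41-fold in the authors' deposited table (adjusted p = 1.0e-07 and 3.6e-14). Ptges3, which encodes the p23 cochaperone, rose 1.94-fold, the HSC70 gene Hspa8 1.87-fold and the HSP40 gene Dnaja1 1.78-fold at 240 min in the authors' deposited table (adjusted p = 1.2e-08, 9.8e-08 and 1.7e-06). Fkbp4, which encodes FKBP52, the close relative of FKBP51 that favours hormone binding, had a ratio of 1.07 at 240 min in the authors' deposited table and was not called; it is named here after its value was seen. Without the length and GC trend the list median at 240 min was 0.55. Voom called 4 of 11 recovered chaperone genes higher and 2 lower at 90 min, and 1 to 7 higher and 0 to 4 lower when 1 pool was left out. At 240 min voom called 6 higher and 1 lower, and 4 to 6 higher and 0 to 1 lower when 1 pool was left out. In introns 2 of 12 rose at 90 min in the authors' deposited table, where 7.61% of 10283 genes were called higher. None of the 12 was called in introns at 240 min, against 11.0% of genes in either direction.

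Coregulators that the receptor recruits moved mainly at 90 min. At 90 min 9 of 12 rose and none fell in the authors' deposited table (median log2 ratio 0.55, against -0.01 over all measured genes), and 2 rose and 1 fell at 240 min. Voom called 9 of the 12 higher at 90 min, and 4 to 10 when 1 pool was left out. In introns 1 of 12 rose at 90 min in the authors' deposited table, near the 7.61% of 10283 genes called higher. None of the 12 was called in introns at 240 min, against 11.0% of genes in either direction. These transcripts are long (median 7946 bases, against 3192 over measured genes), and less the length and GC trend the median at 90 min was 0.22. The corepressor gene Nrip1 rose 2.35-fold, the acetyltransferase gene Crebbp 1.83-fold and the corepressor gene Ncor1 1.58-fold at 90 min in the authors' deposited table (adjusted p = 2.7e-09, 3.1e-07 and 4.8e-07). Ppargc1a, the coactivator of gluconeogenic genes, had 0.519 FPKM at 240 min, against 1.83 FPKM in untreated livers, a fall to 0.26 of the untreated level in the authors' deposited table (adjusted p = 7.9e-07).

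Of 6 measured genes of corticosteroid metabolism and transport, 1 rose and 3 fell at 240 min in the authors' deposited table, and 1 rose at 90 min. H6pd, which supplies NADPH to the corticosterone-regenerating enzyme Hsd11b1, rose 1.63-fold at 240 min in the authors' deposited table (adjusted p = 5.0e-05). Serpina6, the gene of corticosteroid-binding globulin, had 929 FPKM at 240 min, against 1337 FPKM in untreated livers, a fall to 0.67 in the authors' deposited table (adjusted p = 0.00059). The steroid 5-alpha-reductase gene Srd5a1 fell to 0.46 (adjusted p = 1.3e-05) and the efflux pump gene Abcb1a to 0.45 (adjusted p = 0.0020) at 240 min in the authors' deposited table. Among the receptor's relatives, Esr1 rose 3.10-fold at 240 min (adjusted p = 3.5e-14) and the mineralocorticoid receptor gene Nr3c2 1.34-fold at 90 min (adjusted p = 0.0499) in the authors' deposited table, and the progesterone receptor gene Pgr was listed at 0 in all groups.

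A wider list of 30 genes that glucocorticoids induce, 29 of them measured, had more members called lower than higher at each time. At 30 min 3 fell and none rose by the authors' deposited table, at 90 min 14 fell and 2 rose, and at 240 min 12 fell and 2 rose. The median log2 ratios were -0.17, -0.37 and -0.40 at the 3 times in the authors' deposited table, and -0.05, -0.19 and -0.30 less the length and GC trend. Voom called 14 of 25 recovered genes lower at 90 min, and 10 to 16 when 1 pool was left out. At 30 min voom called 0 of 25 lower, and 1 to 13 when 1 pool was left out. In introns 11 of 29 fell and none rose at 90 min in the authors' deposited table. Of general hepatocyte markers in that table at 90 min, 5 of 9 fell and 2 rose in the gene body (median log2 ratio -0.35). In introns 5 of 9 fell and 1 rose (median -0.52, against -1.03 for the induced list). At 30 min 5 of 29 induced genes fell in introns and none rose, while 1 of 9 hepatocyte markers rose and none fell. The share of all genes called in introns at 30 min was 1.28% in either direction. At 240 min 7 of 29 induced genes fell in introns and 1 rose, while 3 of 9 hepatocyte markers rose and none fell. The share of all genes called in introns at 240 min was 11.0% in either direction. At 240 min 3 of the 9 hepatocyte markers fell and 1 rose in the gene body (median -0.21). Whether the induced genes fell apart from hepatocyte genes in general was not tested. The IGF-binding protein gene Igfbp1 had 11.6, 6.16 and 11.6 FPKM at 30, 90 and 240 min after GH, against 45.4 FPKM in untreated livers, and fell to 0.26, 0.14 and 0.25 in the authors' deposited table (adjusted p = 1.8e-08, 1.1e-68 and 2.2e-29). The transcription factor gene Cebpb fell to 0.24 at 30 min and 0.30 at 90 min (adjusted p = 3.25e-06 and 1.6e-25), and at 90 min the tyrosine aminotransferase gene Tat fell to 0.47 and the gluconeogenic gene Pck1 to 0.46 (adjusted p = 4.9e-19 and 2.2e-18) in the authors' deposited table. Cebpb, Tat and Pck1 were also called lower at 240 min (ratios 0.47, 0.49 and 0.59). The 2 that rose at 90 min were Pik3r1 (2.12-fold) and Mertk (1.73-fold), named here for that reason. Those that rose at 240 min were Errfi1 (2.48-fold) and G6pc (1.44-fold), both of them called lower at 90 min (ratios 0.77 and 0.24).

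**Figure D4:**
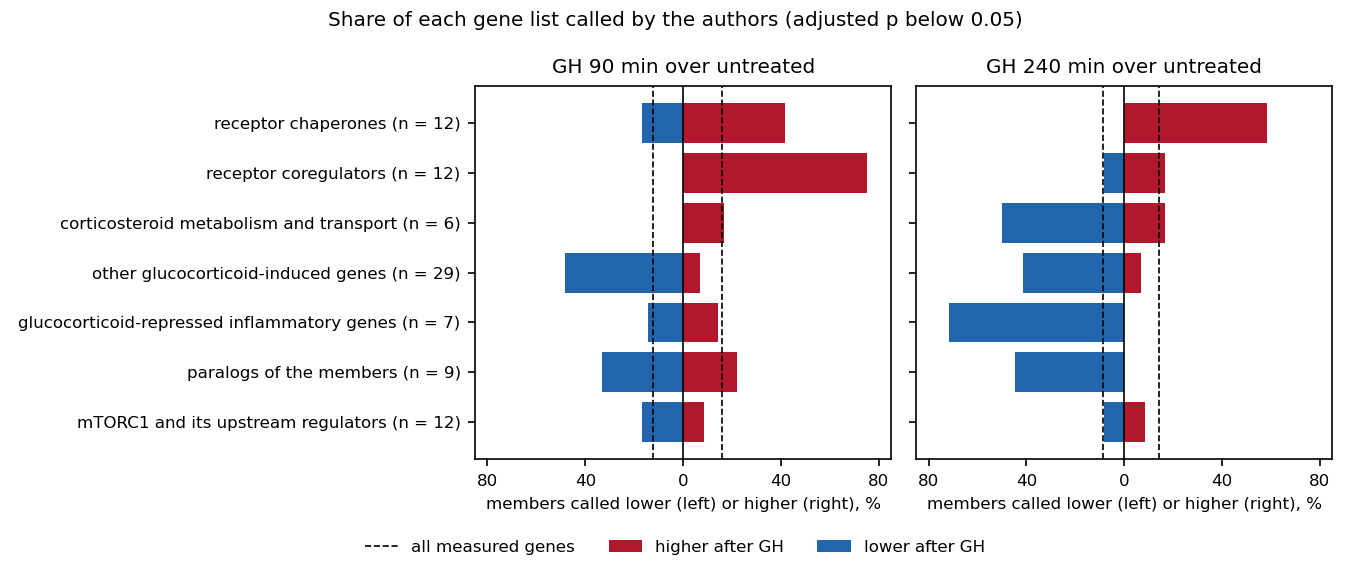
Share of each gene list shown that the authors called (adjusted p below 0.05) lower, to the left, or higher, to the right, at 90 and 240 min over untreated livers. The lists of the receptor's relatives and of cell type markers are left out. In the labels, n is the number of genes with at least 1 FPKM. Dashed lines mark the shares over all measured genes (15.9% higher and 12.5% lower at 90 min, 14.4% and 8.58% at 240 min); coregulators reach 9 of 12 higher at 90 min and chaperones 7 of 12 higher at 240 min.

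Most of the measured inflammatory genes that glucocorticoids repress fell at 30 and 240 min. At 30 min 4 of 7 measured genes fell by the authors' deposited table, and at 240 min 5 of 7 fell (median log2 ratios -1.22 and -1.24), while at 90 min 1 rose and 1 fell. The neutrophil chemokine gene Cxcl1 had 59.7 FPKM at 240 min, against 282 FPKM in untreated livers, a fall to 0.20 in the authors' deposited table (adjusted p = 8.0e-32), and Il1b fell to 0.26 (adjusted p = 2.3e-20). Cxcl1 was also the gene that rose at 90 min in that table (1.42-fold, adjusted p = 0.00096). Cxcl10 fell to 0.20 at 30 min and 0.42 at 240 min, and Ccl2 to 0.22 and 0.40 (adjusted p = 1.8e-08, 7.0e-07, 2.1e-05 and 0.00056 in that order) in the authors' deposited table. The neutrophil marker sum was also lower at 30 min (13.8 FPKM) and 240 min (21.2 FPKM) than in untreated livers (34.5 FPKM), as was that of Kupffer cell markers (202 and 163 FPKM, against 225 FPKM). Among 10 Kupffer cell markers the authors' deposited table called 1 lower at 30 min and 4 lower at 240 min. Of 5 neutrophil markers with at least 1 FPKM, it called none at 30 min and 2 lower at 240 min. The part of these cells in the changes was not tested. With voom none of 10 recovered genes was called lower at 30 min, and 0 to 5 were when 1 pool was left out.

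Of the members' paralogs, 2 of 9 measured rose and 3 fell at 90 min and 4 fell at 240 min in the authors' deposited table. Voom called 4 of 10 recovered paralogs lower at 90 min (2 to 5 when 1 pool was left out) and 4 lower at 240 min (0 to 5). Tsc22d2 rose 1.93-fold at 90 min (adjusted p = 2.0e-06), while Tsc22d4 fell to 0.56 (adjusted p = 1.35e-05), the kinase gene Sgk2 to 0.52 (adjusted p = 2.5e-09) and Lpin2 to 0.69 (adjusted p = 0.00045) in the authors' deposited table. The genes around mTORC1, the kinase complex that REDD1 restrains, were near the background: by the authors' deposited table, 1 of 12 rose and 2 fell at 90 min, and 1 rose and 1 fell at 240 min. Deptor, an inhibitory mTOR partner, rose 1.97-fold at 90 min and 2.26-fold at 240 min (adjusted p = 2.1e-14 and 8.7e-13), and the REDD1 paralog gene Ddit4l fell to 0.47 at 240 min (adjusted p = 0.0031) in the authors' deposited table. Sesn1, a stress-induced mTORC1 inhibitor, fell to 0.65 and the translation repressor gene Eif4ebp1 to 0.73 at 90 min (adjusted p = 0.0036 and 0.014) in the authors' deposited table.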

How the data were processed

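Poly-A RNA libraries made with a strand-specific kit were sequenced from 8 liver pools, per the labels. TopHat2, featureCounts, edgeR and mm9 are named, with no versions, per the submitters' processing notes. The authors deposited mean FPKM per group for gene bodies and for introns, per the file headers. The ratio is the authors' normalized GH over untreated ratio and the adjusted p-value is theirs, per the file headers. The sources used here do not give the method of adjustment.

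Since a mean FPKM is a sum of whole reads over 2 library totals and an exon length, a search for totals and lengths that give whole reads in all 4 groups recovered the reads of each pool (13091 genes; 99.7% of 47759 intronic means were then whole too, with intron length taken as the gene's span minus its exon length, which shows that the file's starts count from 0; starts are given here from 1). The gene body reads are exonic by this scale. Recovered reads were fitted with limma 3.58.1 voom and empirical Bayes in R 4.3.3, pairwise between groups, pools scaled by their median, p-values adjusted by Benjamini-Hochberg over all genes tested (at least 0.2 FPKM; for introns at least 20 reads). This fit, added after seeing the data, was tried on simulated data with changes larger than the gene body changes called in the members. That trial does not show how well changes of the members' size are called. The plan had a count test only for a table of counts per library, so the authors' calls are the main result. The length and GC trend (longest GENCODE transcript, matched by symbol for 96.1% of measured genes) was fitted by robust regression in statsmodels 0.14.6. Fold changes are the authors' ratios without a pseudocount.

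The members and lists were chosen with earlier results of these data known. Named beside the members were up to 4 genes per list with the smallest adjusted p, and the 3 nearest genes to each called member.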

Additional observations from a re-analysis of the deposited data

Results flagged for a closer look

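Fkbp5 differed between 240 and 90 min after GH in both measures, by a direct test of the recovered reads (limma voom). Its gene body level was higher at 240 min by 1.10 (log2, SE 0.24, adjusted p = 0.020), with both 240 min pools (7.72 and 13.02 FPKM) above both 90 min pools (3.90 and 5.23 FPKM); the call was lost in 3 of 9 alternative fits (adjusted p up to 0.14). Its introns were lower at 240 min, with a log2 difference of -1.57 (SE 0.33, adjusted p = 0.0057) and both 240 min pools (0.0141 and 0.0203 FPKM) below both 90 min pools (0.0646 and 0.0671 FPKM); the call was lost in 2 of 6 alternative fits (adjusted p up to 0.093). Nr3c1 was lower at 240 than at 90 min, with a log2 difference of -0.62 in the gene body (SE 0.15, adjusted p = 0.029) and both 240 min pools (13.1 and 17.2 FPKM) below both 90 min pools (21.7 and 21.7 FPKM); the call was lost in 6 of 9 alternative fits (adjusted p up to 0.11).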

How the results depend on the processing

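Counts of called members changed with the test and the pools. In the gene body, the authors' table called 0, 3 and 1 of 7 members at 30, 90 and 240 min over untreated livers. At 90 min the count was 0 when at least 2-fold was asked, 0 when all 8 pools shared 1 fit, and 2 to 4 when 1 pool was left out. At 240 min it was 2 by voom and 2 by voom on genes with at least 1 FPKM, and 1 to 2 without 1 pool. At 30 min leaving out 1 pool gave 0 to 2, and Tsc22d3 reversed to -0.57 without the deeper 30 min pool. In introns the authors' count at 90 min was 1 of 7, against 2 by voom, 2 by voom without scaling of the pools, and 0 to 3 without 1 pool. Between 240 and 90 min voom called 2 members in the gene body, but 1 with all 8 pools in 1 fit, 1 without scaling, 0 on log2(FPKM + 0.1), 0 on log2(FPKM + 1), and 1 to 2 without 1 pool. In introns that comparison had 1, but 2 without scaling and 0 to 1 without 1 pool. Between 90 and 30 min the gene body count was 0, or 0 to 3 without 1 pool, and the intronic count 0, or 1 with all 8 pools in 1 fit and 0 to 1 without 1 pool. Calls over all genes moved too: at 90 min over untreated voom called 3572 of 13091 genes in the gene body, 281 with all 8 pools in 1 fit and 807 to 4399 without 1 pool, and at 30 min 0, or 7 to 4051 without 1 pool. The cause of these changes was not tested. A group left with 1 pool was assumed to vary like the other. Of 820 alternative values, 738 kept their side of the threshold with no called direction changed, and 49 of these were uncalled values with the other sign. Over all genes the gene body calls fell to 40 (64 as reported) at 30 min at an adjusted p below 0.01, and, at 2-fold or more, to 521 (3240) at 90 min and 781 (2642) at 240 min. No paired analysis was possible because the recovered pools carry no pool number, so the block by pool number was not run. Keeping the motif search to the bases before the start gave the same 5 windows. Depth limits Zbtb16 (8 to 58 reads per pool) and the intronic values of all members.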
